A study of Bos taurus with 9 samples.

Results

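A pair of related groups of cattle miRNAs, named miR-2284 and miR-2285, were followed through 9 small RNA libraries of rectal tissue. Members were all rows of the deposited miRNA table whose name begins with bta-miR-2284 or bta-miR-2285. This gave 41 of the 515 rows, 22 of miR-2284 and 19 of miR-2285. The libraries came from British x Continental feedlot steers, 1 library for each animal. The super-shedder group (SS) was 5 steers labelled as shedding E. coli O157 in feces above the super-shedding level, with the numbers 274, 287, 294, 299 and 310. The negative group (NS) was 4 pen-mates labelled negative for it, with the numbers 108, 152, 165 and 242. The labels name no treatment for either group and give no ages. SS steers were identified in the days before slaughter, and some were under that level when the tissue was taken. For all of them but SS 310, the authors' last record was a positive result without a count, on the day before slaughter. The comparison asked whether rectal miRNAs differ between steers that had been found to shed the bacterium at a high level and steers in which it was not found.

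A miRNA is loaded into an Argonaute protein and guides it to messenger RNAs, mainly through the bases near its 5′ end that are called the seed, and lowers their stability or translation. The miR-2284 and miR-2285 families are large families of ruminants with many gene copies scattered over the cattle genome. Because members are much alike, a short read can match more than 1 of them, and the level of a member then depends on how such reads were assigned.

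The families were a small share of the miRNA signal and were carried by few members. Values are in CPM, reads set relative to the library total by which the deposited values were scaled. That total was 650726 reads (NS 108) to 6314556 reads (SS 310) and need not be every read sequenced, and 1 read stood for 0.158 to 1.54 CPM. The members other than bta-miR-2284y had 12102 reads in all 9 libraries together. Of these, bta-miR-2284x had 72.6% and bta-miR-2285k had 12.6%. In order of mean CPM over the 9 libraries, bta-miR-2284x stood at place 78 of 515 rows and bta-miR-2285k at place 128. Rows were tested if at least 4 libraries had 5 CPM or more, which 10 of 41 members (24.4%) and 245 of 515 rows (47.6%) did. The tested members were bta-miR-2284ab, bta-miR-2284w, bta-miR-2284x and bta-miR-2284y, and bta-miR-2285aa, bta-miR-2285k, bta-miR-2285o, bta-miR-2285q, bta-miR-2285t and bta-miR-2285u. The other 31 members had 372 reads together, and 24 members never had more than 5 reads in a library.

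The tissue label was held against miRNA markers. All 6 marker lists (intestinal epithelium, smooth muscle, leukocyte, squamous epithelium, erythrocyte and endothelium) had every marker at above 0 in every library. The squamous epithelium list was bta-miR-205 alone, at 0.158 to 34.7 CPM across SS and 2.23 to 187 CPM across NS. Its values in SS 274, 294 and 310, 0.225, 0.673 and 0.158 CPM, were single reads. The marker sums differed widely between animals. The summed smooth muscle markers were at 222069 to 736839 CPM across SS and 306219 to 627891 CPM across NS. Nearly all of this sum was bta-miR-143, at 221055 to 730780 CPM across SS and 304306 to 625306 CPM across NS. This 1 miRNA was thus a large and varying part of each library. The summed intestinal epithelium markers were at 4276 to 401685 CPM across SS and 25250 to 134093 CPM across NS. The 8 leukocyte markers summed to 691 to 20359 CPM across SS and 3800 to 44746 CPM across NS, with the highest value in NS 242. In such bulk tissue, fewer cells of a type and less RNA per cell cannot be told apart.

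bta-miR-2284x had the highest level in every library, equal to or just above that of bta-miR-2284y, which is treated below. It was at 484, 445, 328 and 1189 CPM in NS 108, 152, 165 and 242. In SS 274, 287, 294, 299 and 310 it was at 215, 573, 715, 300 and 203 CPM. The lowest values were in SS 310 and SS 274 and the highest in NS 242, and the groups overlapped (401 ± 230, SD, n = 5, in SS against 611 ± 391, n = 4, in NS). It made up 60.4% to 79.2% of the families' CPM without bta-miR-2284y. The families' sum was 414 to 1668 CPM across NS and 264 to 1183 CPM across SS, or 0.0264% to 0.167% of the library total.

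bta-miR-2284y could not be read apart from bta-miR-2284x. The pair had the same number of reads in all 4 NS libraries and in SS 287. In SS 274, 294, 299 and 310, bta-miR-2284x had 9, 24, 4 and 4 reads more, at most 2.26% of its reads. How reads that match both names were assigned was not tested. bta-miR-2284e and bta-miR-2284f were equal in 8 of 9 libraries, with at most 4 reads each in any of them. bta-miR-2284y is counted among the tested members, but its values are not a second observation.

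bta-miR-2285k was second in level and varied far more. It was at 64.5, 34.3, 25.9 and 209 CPM in NS 108, 152, 165 and 242. In SS 274, 287, 294, 299 and 310 it was at 11.5, 109, 332, 66.1 and 19.5 CPM. Both the highest and the lowest value were in SS libraries, and the highest value was 28.9 times the lowest. A range at least this wide was seen in 36 of the 245 tested rows. The largest and smallest values of bta-miR-2284x differed 5.86-fold, and the median over the tested rows was 8.02-fold. bta-miR-2285k was 28.0% of the families' CPM in SS 294 and 4.23% in SS 274.

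**Figure D1:**
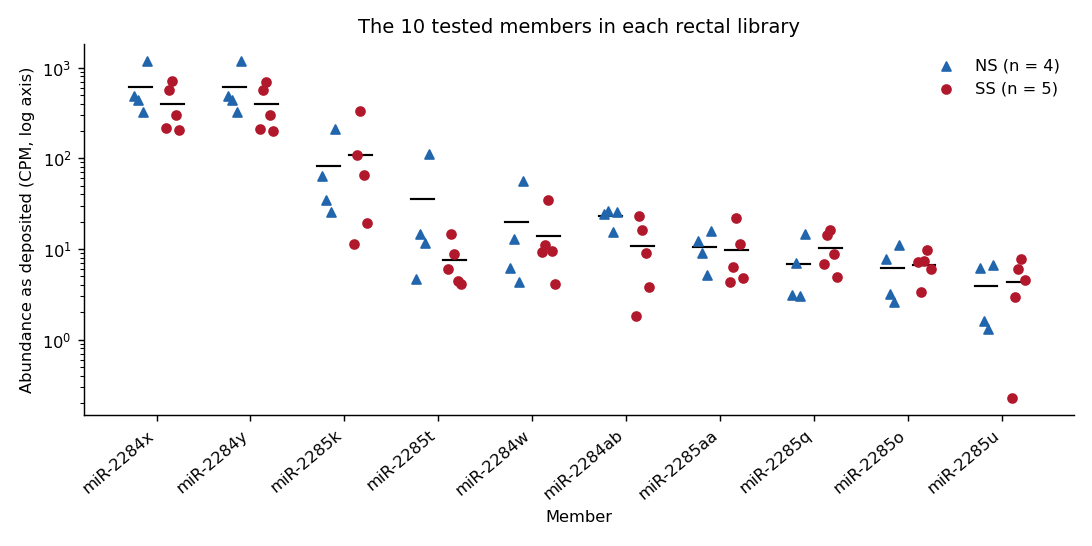
Abundance of the 10 tested members in each library, in CPM as deposited on a log axis, with triangles for NS (n = 4), circles for SS (n = 5) and black bars for group means. The members spanned from 1189 CPM for bta-miR-2284x in NS 242 to 0.225 CPM for bta-miR-2285u in SS 274, and SS and NS overlapped for each of the 10.

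The other 7 tested members, bta-miR-2284y aside, lay at lower mean levels. bta-miR-2284ab was at 24.6, 26.3, 15.5 and 25.7 CPM in NS 108, 152, 165 and 242. In SS 274, 287, 294, 299 and 310 it was at 1.80, 22.9, 16.1, 9.08 and 3.80 CPM. SS 274, SS 299 and SS 310 were below all NS libraries, and SS 287 and SS 294 were above NS 165.

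bta-miR-2285t was at 4.61, 14.5, 11.7 and 110 CPM in NS 108, 152, 165 and 242. In SS 274, 287, 294, 299 and 310 it was at 6.08, 14.8, 8.75, 4.39 and 4.12 CPM. The value of NS 242, from 99 reads, stood far above the other 8, which overlapped between the groups. bta-miR-2284w was at 6.15, 12.9, 4.32 and 56.9 CPM in the NS libraries in the same order. In the SS libraries it was at 9.24, 11.1, 35.0, 9.40 and 4.12 CPM. NS 242 and SS 294 were high, and the remaining 7 libraries mixed the groups. NS 242 and SS 294 were also the libraries with the highest summed leukocyte markers, 44746 and 20359 CPM. NS 242 further had the highest erythrocyte markers (3034 CPM, against 269 to 661 CPM in the other 8 libraries). The endothelium markers were highest in NS 242 and SS 294 as well, at 14094 and 8279 CPM against 3311 to 7113 CPM in the others, and the part of these cells in the 2 members' values was not tested. In SS 294, bta-miR-2285t was not high.

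bta-miR-2285q was at 3.07, 6.97, 3.02 and 14.5 CPM in NS 108, 152, 165 and 242. In SS 274, 287, 294, 299 and 310 it was at 6.76, 14.4, 16.1, 8.77 and 4.91 CPM. The 2 lowest values were in NS and the highest in SS, with overlap between the groups. bta-miR-2285aa ranged over 5.18 to 15.6 CPM in the NS libraries and over 4.28 to 22.2 CPM in the SS libraries, with a median of 6.27 CPM in SS. bta-miR-2285o ranged over 2.59 to 11.2 CPM in the NS libraries and 3.32 to 9.71 CPM in the SS libraries. bta-miR-2285u ranged over 1.30 to 6.69 CPM in the NS libraries and 0.225 to 7.83 CPM in the SS libraries, and its lowest value, in SS 274, was a single read. The level of bta-miR-2285u in this library was therefore at the limit of counting. Its NS values also rested on few reads, 4, 3, 3 and 6 in NS 108, 152, 165 and 242. In NS 108, bta-miR-2285t, bta-miR-2284w and bta-miR-2285q had 3, 4 and 2 reads.

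None of the 10 tested members passed the test between SS and NS. The test was limma on log2(CPM + 1), adjusted by Benjamini-Hochberg over the 245 tested rows, with a call at an adjusted p under 0.1 (FDR) and a log 2 (fold change) above 1 in size. It called 0 of 10 members and 0 of 245 rows (0%). At an unadjusted p under 0.05, 40 of 245 rows (16.3%) and 1 of 10 members passed, and 39 of the 40 were lower in SS. Other tools called from 0 to 9 of the 245 rows, as given with bta-miR-2285q. Members below 0 on this scale were 7 of 10 (6 of 9 without bta-miR-2284y), against 216 of 245 rows (88.2%). The median log2 difference was −0.20 over the members and −0.70 over all tested rows.

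The member with the unadjusted p under 0.05 was bta-miR-2284ab, with a log2 difference of −1.41 (SE 0.63) and an adjusted p of 0.297 by limma. bta-miR-2285t followed with −1.25 (SE 0.77) and an adjusted p of 0.358, and without NS 242 its difference was −0.39 (SE 0.53), 0.13 above the median row. bta-miR-2284x had −0.61 (SE 0.54), with an adjusted p of 0.510, and bta-miR-2284y had −0.62. bta-miR-2285q had the highest difference of the members, 0.62 (SE 0.54), with an adjusted p of 0.503. The remaining 5 lay from −0.25 (bta-miR-2285aa) to 0.23 (bta-miR-2285o).

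The scale of the values moved these differences. Under the trimmed mean of M-values (TMM), which sets libraries on the bulk of the miRNAs and not on the read total, the median over the tested rows was −0.04 instead of −0.70. Members below 0 were then 2 of 10, against 127 of 245 rows (51.8%). Relative to the median row, the order changed little. bta-miR-2284ab and bta-miR-2285t lay under the median row by 0.71 and 0.56 as deposited, and by 0.77 and 0.59 under TMM, which for bta-miR-2285t rested on NS 242. The other 8 lay above it by 0.07 to 1.32 as deposited and by 0.11 to 1.26 under TMM. bta-miR-2284x lay 0.08 above the median row as deposited and 0.12 above it under TMM. Under TMM its difference was 0.08 (SE 0.24).

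**Figure D2:**
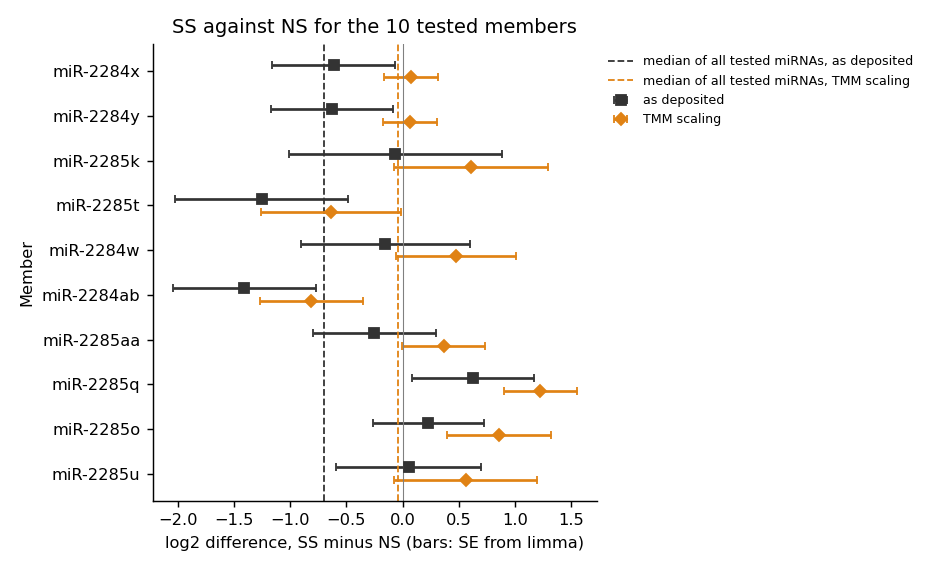
Log2 difference between SS and NS for the 10 tested members, as deposited (squares) and under TMM scaling (diamonds), with bars for the standard error from limma and dashed lines for the median of the 245 tested rows on each scale. The members moved up together with the median row when the scale was changed, bta-miR-2284ab and bta-miR-2285t remained to the left of that row, and bta-miR-2285q was farthest to its right.

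TMM scaling also brought the libraries closer together for bta-miR-2284x. Its 9 values then ranged from 350 to 575 CPM, or 1.64-fold, and it stood at place 5 from the narrowest of the 245 tested rows. The median row ranged 3.99-fold and bta-miR-2285k 13.1-fold. Group means were then 439 ± 70 CPM for SS (SD, n = 5) and 421 ± 104 CPM for NS (n = 4).

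Members whose values did not overlap between the groups were found below the filter, at few reads. bta-miR-2284j had 3, 12, 11 and 2 reads in NS 108, 152, 165 and 242. It had 1, 1, 0, 0 and 1 reads in SS 274, 287, 294, 299 and 310. In CPM these were 4.61, 6.44, 4.75 and 2.23 in NS against 0.225, 0.369, 0, 0 and 0.158 in SS, so that every NS library was above every SS library. Summed, it had 28 of 5727503 reads in NS and 3 of 18142261 reads in SS, a ratio of 29.6 with an exact 95% interval of 9.13 to 152 that covers counting error only. The exact 95% intervals of the 0 reads in SS 294 and SS 299 reach up to 2.48 and 1.16 CPM.

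bta-miR-2284d showed a similar pattern with a smaller gap. It had 5, 11, 6 and 1 reads in NS 108, 152, 165 and 242. It had 1, 2, 1, 0 and 2 reads in SS 274, 287, 294, 299 and 310. Its NS values were 7.68, 5.90, 2.59 and 1.12 CPM and its SS values 0.225, 0.738, 0.673, 0 and 0.317 CPM. The groups did not overlap, but NS 242 rested on 1 read. The summed reads were 23 in NS and 6 in SS, a ratio of 12.1 with a counting interval of 4.81 to 36.5. As deposited, 22 of the 515 rows (4.27%) had no overlap between the groups, all of them lower in SS, and these were the 2 members among them. No member was without overlap among the 10 tested, against 16 of 245 tested rows (6.53%).

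**Figure D3:**
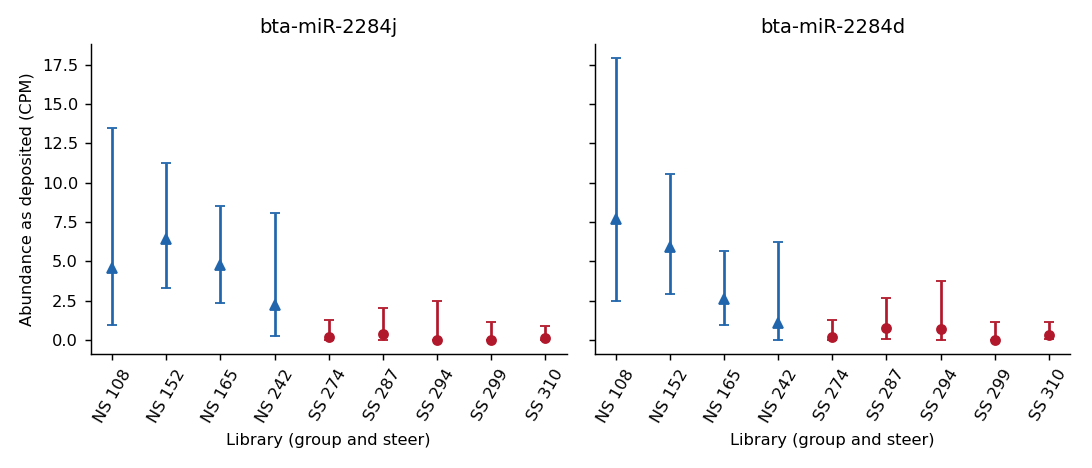
CPM of bta-miR-2284j and bta-miR-2284d in each library, triangles for NS and circles for SS, with bars for the exact 95% interval of the read count. For bta-miR-2284j the NS values lie from 2.23 to 6.44 CPM and the SS values from 0 to 0.369 CPM, and the intervals of single libraries partly overlap.

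With no filter on low values, limma called 1 of 515 rows (0.194%), and this was bta-miR-2284j. At an unadjusted p under 0.05 were 50 rows (9.71%) and 3 of the 41 members, and 385 rows (74.8%) and 23 members were below 0. The log2 difference of bta-miR-2284j was −2.21 (SE 0.33) with an adjusted p of 0.0137 by limma. A difference at this level depends on the pseudocount of 1, and was −2.90 with 0.5 and −4.37 with 0.1, −3.76 by edgeR and −4.09 by DESeq2. bta-miR-2284d had −1.76 (SE 0.44) and an adjusted p of 0.319 and was not called, and without NS 242 it was called with an adjusted p of 0.0495, when 3 of 515 rows (0.583%) were called, bta-miR-2284j among them. With a filter of 1 CPM in 4 libraries, which bta-miR-2284j passes only through its NS libraries, 1 of 343 rows (0.292%) was called. This was bta-miR-2284j too, but a row that enters through the group in which it is high had to differ, so this call adds no support. Reads were recovered from the values, and count tests were run on all rows. The edgeR exact test called 6 of 515 rows (1.17%), among them bta-miR-2284j (adjusted p = 0.00708) and bta-miR-2284d (adjusted p = 0.0672). DESeq2 called 13 of 515 rows (2.52%), among them bta-miR-2284j (adjusted p = 0.0234), bta-miR-2284d (adjusted p = 0.0758) and bta-miR-2285q (adjusted p = 0.0697). The edgeR quasi-likelihood test called 0 of 515 rows (0%), with 39 rows (7.57%) at an unadjusted p under 0.05 and an adjusted p of 0.178 for bta-miR-2284j.

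The call of bta-miR-2284j with limma did not hold on every scale. Its adjusted p was 0.143 under TMM and 0.147 under median-of-ratios scaling, with log2 differences of −1.89 and −1.88 and the groups still without overlap. It was 0.104 without SS 299, with a log2 difference of −2.16. With bta-miR-143 out of the totals it was 0.0398, with −2.82. Without any other single library the adjusted p by limma was 0.00223 to 0.0591. In the exact two-sided permutation test with 126 arrangements of the group labels, bta-miR-2284j and bta-miR-2284d both had p = 0.00794, the smallest that this design allows, and an adjusted p of 0.292 over the 515 rows. That test called 0 of 515 rows (0%). A lone row at the smallest p could not pass its adjustment over 515 rows, so the 0 calls do not bear on the limma call. In that test, 57 rows (11.1%) and 3 members, the third being bta-miR-2285z, had an unadjusted p under 0.05. With bta-miR-143 out of the totals these were 53 rows (10.3%) and 7 members. Of the members, bta-miR-2284ab, bta-miR-2284d, bta-miR-2284j, bta-miR-2284x and bta-miR-2284y were lower in SS, and bta-miR-2285q and bta-miR-2285z were higher. bta-miR-2284y is not a second observation beside bta-miR-2284x. Under TMM, bta-miR-2284d overlapped between the groups, with an exact permutation p of 0.0238.

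In RefSeq's cattle genes (assembly ARS-UCD2.0), the gene of bta-miR-2284j, MIR2284J, overlaps that of another miRNA, MIR2312, and the protein-coding gene GRIK4, which encodes a subunit of kainate-type glutamate receptors. The libraries differ in depth between the groups: the 5 SS totals were 1486495 to 6314556 reads and the 4 NS totals 650726 to 2316164. bta-miR-2284j had 28 of 5727503 reads in NS and 3 of 18142261 reads in SS. The part of depth in its difference was not tested.

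bta-miR-2285q was, of the 10 tested members, the one most above the median row, and its values were close together in SS once the libraries were scaled by TMM. Under TMM it was at 11.0, 11.8, 11.9, 11.5 and 11.0 CPM in SS 274, 287, 294, 299 and 310, from 30, 39, 24, 28 and 31 reads. In NS 108, 152, 165 and 242 it was at 2.23, 6.16, 3.36 and 7.02 CPM, from 2, 13, 7 and 13 reads. Every SS library was above every NS library on this scale (11.4 ± 0.43, SD, n = 5, against 4.69 ± 2.26 CPM, n = 4), while as deposited the groups overlapped. Its log2 difference under TMM was 1.22 (SE 0.32), with an adjusted p of 0.246 by limma. DESeq2 on the 245 filtered rows called 9 of them (3.67%), and of the members bta-miR-2285q alone, with a log2 difference of 1.22 (SE 0.38) and an adjusted p of 0.0420. The edgeR exact test called 1 of 245 (0.408%) and the quasi-likelihood test 0 of 245 (0%), with 26 rows (10.6%) at an unadjusted p under 0.05, and neither called a member.

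The gene of bta-miR-2285q, MIR2285Q, overlaps MIR2285Z, and both overlap SREK1, which encodes a splicing regulatory protein. bta-miR-2285z was counted at 0, 1, 0 and 0 reads in NS 108, 152, 165 and 242. It had 2, 3, 1, 3 and 3 reads in SS 274, 287, 294, 299 and 310. It was seen in all 5 SS libraries and in 1 of 4 NS libraries, at most at 1.11 CPM, and the SS libraries held more reads in all. Its exact permutation p was 0.0317 as deposited (adjusted p = 0.399) and 0.00794 under TMM (adjusted p = 0.314). The exact 95% intervals of the 0 reads in NS 108, 165 and 242 reach up to 5.67, 1.59 and 4.11 CPM, above its highest SS value. Summed, it had 1 read in NS and 12 in SS, a ratio of NS to SS of 0.264 with a counting interval of 0.00617 to 1.78, which includes equal levels. Under TMM 7 of 515 rows (1.36%) were higher in SS with no overlap, and bta-miR-2285q and bta-miR-2285z, the latter within the limits just given, were 2 of these. A further 13 rows (2.52%) were lower with no overlap, and bta-miR-2284j was 1 of these. The lack of overlap of bta-miR-2285z under TMM rested on 0.497 CPM in SS 294 against 0.474 CPM in NS 152. Each of these values was a single read, so the scale of the 2 libraries set their order.

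**Figure D4:**
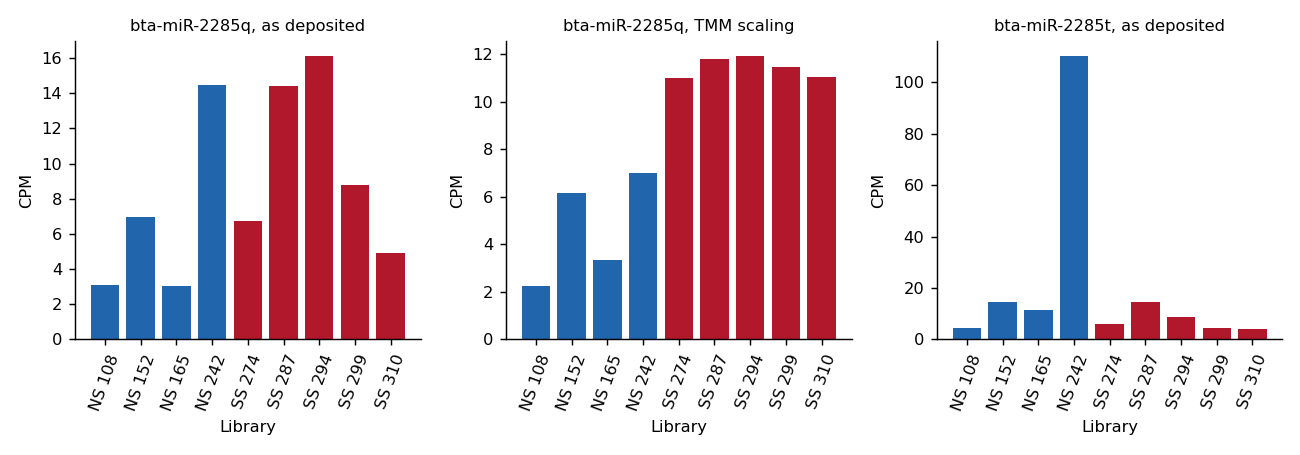
CPM of bta-miR-2285q as deposited and under TMM scaling, and of bta-miR-2285t as deposited, in each library, with blue bars for NS and red bars for SS. Under TMM the 5 SS values of bta-miR-2285q, from 24 to 39 reads each, lie from 11.0 to 11.9 CPM, all above the NS values. bta-miR-2285t stands at 110 CPM in NS 242 and at 4.12 to 14.8 CPM in the other 8 libraries.

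Across the 9 animals, bta-miR-2284x as deposited followed the leukocyte marker miRNAs, among them bta-miR-150 and bta-miR-142-5p of lymphoid and other blood cells. Against the mean log2(CPM + 1) of the 8 leukocyte markers, Pearson's r was 0.981 (exact permutation p = 2.76e-06, adjusted p = 4.13e-05 over 30 relations, n = 9). Spearman's rho was 1 (exact permutation p = 5.51e-06, adjusted p = 8.27e-05). Without SS 310 and NS 242, the 2 libraries farthest from the median score, r was 0.980. The relations were those of the 10 tested members with 3 lists (leukocyte, intestinal epithelium, smooth muscle).

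Most miRNAs shared this relation on the deposited scale. Of the 237 tested rows outside the leukocyte list, 131 (55.3%) had r above 0.7 with it, and the median r was 0.73. bta-miR-2284x stood at place 3 of these rows by r and at place 5 by rho. Under TMM the median r was 0.01 and 30 rows (12.7%) were above 0.7. For bta-miR-2284x r then was 0.707 (exact permutation p = 0.0341, adjusted p = 0.162, n = 9), and rho was 0.717 (adjusted p = 0.184), at places 28 and 26 of the rows. Without NS 242 and SS 294 r was 0.175, so that the relation on that scale rested on those libraries. The part of the library scale in the relation as deposited was not tested further.

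bta-miR-2285k kept more of the relation. As deposited, its r with the leukocyte list was 0.912 (exact permutation p = 0.000984, adjusted p = 0.00984, n = 9) and its rho 0.867 (adjusted p = 0.0451), with r = 0.928 without SS 310 and NS 242. Under TMM r was 0.806 (exact permutation p = 0.00887, adjusted p = 0.162, n = 9) and rho 0.917 (exact permutation p = 0.00131, adjusted p = 0.0394), with r = 0.628 without NS 242 and SS 294. Among the 237 rows it stood at place 35 by r and 61 by rho as deposited, and at place 15 by r and 3 by rho under TMM. The 3 lowest leukocyte sums were all in SS libraries as deposited (691, 940 and 2751 CPM in SS 310, 274 and 299), below the lowest NS library at 3800 CPM. By the mean log2 score under TMM, SS 299 (7.86) lay above NS 165 (7.76) and NS 152 (7.84).

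**Figure D5:**
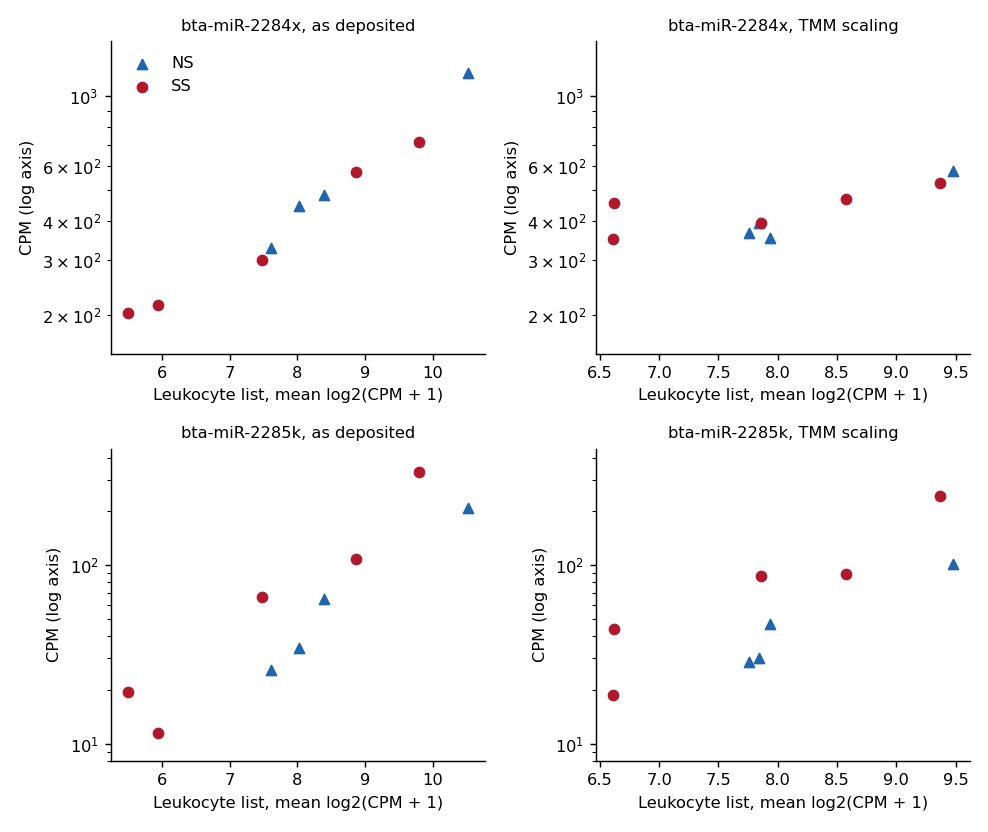
CPM of bta-miR-2284x (top) and bta-miR-2285k (bottom) on log axes against the mean log2(CPM + 1) of the 8 leukocyte markers, as deposited (left) and under TMM scaling (right), each point 1 library, triangles for NS and circles for SS. The points of bta-miR-2284x lie on a rising line as deposited (r = 0.981) and flatten to 350 to 575 CPM under TMM, while those of bta-miR-2285k still span 13.1-fold.

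The other members differed in this respect. As deposited, r with the leukocyte list was 0.817 for bta-miR-2284ab, 0.801 for bta-miR-2285aa and 0.799 for bta-miR-2284w (adjusted permutation p = 0.0316 for each, n = 9). It was 0.701 for bta-miR-2285t (adjusted permutation p = 0.0633, n = 9) and 0.323 without SS 310 and NS 242. It was 0.189 for bta-miR-2285o. Under TMM these 5 had r from −0.51 (bta-miR-2285o) to 0.49 (bta-miR-2284ab), with adjusted permutation p of 0.397 to 0.922. Without NS 242 and SS 294, r under TMM was 0.818 for bta-miR-2284ab and −0.722 for bta-miR-2285o. It was −0.364 for bta-miR-2284w, −0.264 for bta-miR-2285aa and −0.052 for bta-miR-2285t. As deposited, r was 0.593 for bta-miR-2285q and 0.483 for bta-miR-2285u (adjusted permutation p = 0.180 and 0.293, n = 9). With intestinal epithelium markers, bta-miR-2284ab had r = 0.805 as deposited (adjusted permutation p = 0.0316, n = 9) and 0.792 under TMM (adjusted permutation p = 0.162, n = 9), with rho 0.583 and 0.70 (adjusted permutation p = 0.162 and 0.185). Without SS 274 and SS 310, the libraries farthest from the median score, r as deposited was 0.113, so that the relation rested on those libraries. Without SS 274 and NS 242 it was 0.694 under TMM. The other 9 members had r from −0.42 to 0.55 with that list as deposited, with adjusted permutation p of 0.213 or more. With smooth muscle markers, r as deposited was −0.866 for bta-miR-2285k (adjusted permutation p = 0.0157, n = 9) and −0.805 for bta-miR-2284x (adjusted permutation p = 0.0316, n = 9). It was −0.786 for bta-miR-2284w and −0.760 for bta-miR-2285aa (adjusted permutation p = 0.0364 and 0.0374, n = 9). For these 4 members in the same order, r without SS 294 and NS 242 was −0.609, −0.731, −0.335 and −0.276, so that the last 2 rested on those libraries. Their rho was −0.65 to −0.78, with adjusted permutation p of 0.0765 to 0.143. Under TMM the adjusted permutation p for r was 0.162 for bta-miR-2285k and bta-miR-2284x, with r = −0.384 and −0.155 without SS 294 and NS 242, and 0.397 and 0.922 for bta-miR-2284w and bta-miR-2285aa. The points of all these relations share their library scale, and the members and the markers were read in the same libraries. For the smooth muscle and intestinal epithelium lists, the share of all tested rows with such r was not counted. These relations are therefore not read as particular to the members.

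Protein-coding genes at the members' loci were looked up by name. In RefSeq, MIR2285T overlaps FCGR2B, which encodes the inhibitory Fc receptor of B cells, MIR2284W overlaps DOCK11, which encodes an exchange factor for a small GTPase, and MIR2284X overlaps TIAM1, which encodes another such exchange factor. MIR2284AB overlaps AFF1, whose protein takes part in transcription elongation, and MIR2285AA overlaps ERCC3, which encodes a helicase of transcription and DNA repair. One of the copies of bta-miR-2285o, MIR2285O-2, overlaps FLT3, the receptor of blood progenitor cells, and other copies overlap RBBP8 and PTPRM. Copies of bta-miR-2285k overlap DLG2, PIP4K2A and LRRC8D. Strand was not used, so host and antisense positions cannot be told apart, and expression of these genes was not measured in the small RNA libraries.

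RefSeq names held 40 of the 41 members, and 60 gene copies of them. Of these copies 38 overlapped a protein-coding gene. More than 1 copy was listed for 6 members. bta-miR-2284y had 7, bta-miR-2285k, bta-miR-2285m and bta-miR-2285o had 5 each, and bta-miR-2285b and bta-miR-2285j had 2 each. bta-miR-2285k, second in level, thus could come from several loci, and its reads do not tell which. The same holds for the reads counted under bta-miR-2284x. They could not be read apart from those of bta-miR-2284y, so they cannot be placed at TIAM1 alone. Some members overlapped each other at a locus. MIR2284Y-2 overlaps MIR2285U, MIR2284Y-4 overlaps MIR2285O-3 and RBBP8, and MIR2284H overlaps MIR2285O-5.

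The remaining members under the filter were seen in few reads. Of the 31, bta-miR-2284ac alone had a read in all 9 libraries, with 1 to 9 reads in each. bta-miR-2285b had the most reads of them, 53, with means of 2.76 ± 1.67 CPM over the 5 SS libraries and 2.92 ± 2.15 CPM over the 4 NS libraries (SD). bta-miR-2284h-5p had 26 reads, 16 of them in SS 299 and 5 in SS 294, and at most 2 in any other library. bta-miR-2285m had 14 reads, 11 of them in SS 274. bta-miR-2285p had 28 reads, at 1.85 ± 2.03 CPM over the SS and 0.652 ± 0.777 CPM over the NS libraries (SD), and bta-miR-2284k had 18 reads, at 0.720 ± 0.787 and 1.49 ± 1.40 CPM. There were 5 members with reads in 1 library, and 11 members had 5 or fewer reads in all. From 21 (NS 108) to 31 members (SS 287) had a read in a library.

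Beside the families, the rows with other numbers of the block given to miRNAs named in cattle were counted. There were 87 such rows, of which 6 were tested. Of these, 5 of 6 were below 0 and the median log2 difference was −0.64, against −0.70 over all tested rows. Limma called 0 of 6, with 0 of 6 at an unadjusted p under 0.05.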

How the data were processed

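Total RNA of rectal biopsies was extracted by the authors with a mirVana kit and made into TruSeq Small RNA libraries, which were sequenced from 1 end. They assigned reads to miRBase with the sRNA toolbox, and the submitters' processing notes name Bowtie and edgeR. The sources used here name no tool version and no genome build for the miRNA reads. The deposited values are reads scaled by the authors to each library, which they call CPM, and are used as a read-based signal because the columns sum to 1024945 to 1089433. Each value was a whole multiple of 1 step per library (100% whole within 0.001 reads), and reads and library totals were recovered from it. All 9 columns were used. The unit had been planned for as CPM, and the planned tests were kept.

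SS and NS were compared with limma 3.58.1 (R 4.3.3) on log2(CPM + 1) with a trended prior, pseudocount 1, filter 5 CPM in 4 libraries, and Benjamini-Hochberg adjustment. edgeR 4.0.16 (quasi-likelihood and exact tests with TMM) and DESeq2 1.42.0 were run on recovered reads, and exact permutation tests and exact binomial intervals with scipy 1.17.1. Other filters, pseudocounts (0.5, 0.1), scalings (TMM, median of ratios, bta-miR-143 left out of the totals) and leaving out each library were tried, and tests without the filter combined with other choices were chosen after seeing the data. The scripts were tested on simulated data. Intervals cover counting error only.

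Groups were taken from sample titles. The members and lists were chosen with earlier results of these data known. Described library by library were the members past the filter and those below it whose groups did not overlap; bta-miR-2285z and the other members below the filter with values were named after their values were seen. RefSeq genes (ARS-UCD2.0) served only for names and neighbours. Mature sequences were not used here, so members were not grouped by seed.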

Additional observations from a re-analysis of the deposited data

Results flagged for a closer look

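In 28 groups of libraries, 14 rows in each of SS and NS, 4 had 1 library far from the rest by Dixon's criterion on CPM. About 1 of 20 groups of normally distributed values meet that criterion. These CPM values need not be so distributed, so the 4 are not set against that rate. bta-miR-2285t was at 110 CPM in NS 242 against 4.61 to 14.5 CPM in the rest of NS. bta-miR-2284w was at 56.9 CPM in NS 242 against 4.32 to 12.9 CPM in the rest of NS, and at 35.0 CPM in SS 294 against 4.12 to 11.1 CPM in the rest of SS. bta-miR-2284ab was at 15.5 CPM in NS 165 against 24.6 to 26.3 CPM in the rest of NS.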

How the results depend on the processing

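The log2 differences of bta-miR-2284ab and bta-miR-2285t kept their sign under each alternative, as did those of bta-miR-2285q, bta-miR-2284j and bta-miR-2284d. Those of 5 members turned with the scale, from −0.62 to −0.065 as deposited. Under TMM they were 0.47 (bta-miR-2284w), 0.076 (bta-miR-2284x), 0.064 (bta-miR-2284y), 0.36 (bta-miR-2285aa) and 0.60 (bta-miR-2285k). Under median-of-ratios scaling they were 0.48, 0.089, 0.077, 0.38 and 0.62 in the same order. By the edgeR quasi-likelihood test they were 0.22, 0.061, 0.049, 0.51 and 0.90, by the edgeR exact test 0.22, 0.060, 0.048, 0.51 and 0.90, and by DESeq2 0.24, 0.080, 0.068, 0.53 and 0.94. With bta-miR-143 out of the totals, bta-miR-2284w was at 0.091 and bta-miR-2285k at 0.17. Without NS 242 and SS 294 bta-miR-2284w was at 0.16, and with pseudocount 0.1 bta-miR-2285u was at −0.10. Leaving out each library in turn gave −1.83 to −0.39 for bta-miR-2285t, −0.59 to 0.56 for bta-miR-2284w, −0.70 to 0.54 for bta-miR-2285k, −0.043 to 0.54 for bta-miR-2285o and −0.24 to 0.52 for bta-miR-2285u.

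Rows called were 1 without the filter, 1 with 1 CPM in 4 libraries, 1 by the edgeR exact test and 9 by DESeq2, and without the filter 6 by the exact test and 13 by DESeq2. Members called were 1 without the filter, 1 with 1 CPM in 4 libraries and 1 by DESeq2, and without the filter 2 by the exact test and 3 by DESeq2. Members with an unadjusted exact permutation p under 0.05 were 7 with bta-miR-143 out of the totals, against 3 as deposited, while over all 515 rows they were 53 against 57. The 7 held both bta-miR-2284x and bta-miR-2284y, and the latter is not a second observation. With no filter and without NS 242, limma called 3 rows, 2 of them members. The call with 1 CPM in 4 libraries is bta-miR-2284j, which enters there only through NS, where it is high. The 5 CPM filter removes bta-miR-2284j and bta-miR-2284d, while bta-miR-2285q passes it; other causes were not tested. Members below the filter rest on few reads, and depth limits them most in the NS libraries. No paired analysis was possible because no steer number occurs in both groups and the labels do not give the pens of the pen-mates.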
